A study of Mus musculus with 6 samples.

Results

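Ribosome biogenesis and nucleolar factors are described here in mouse embryonic stem cells whose Trim71 protein carried the R783H change. The set holds 50 genes, listed by symbol for their roles in the nucleolus, with earlier results of these data known, out of 27179 gene identifiers in the count table. All 50 were found in the table and all 50 passed the filter on low counts. They comprise 6 genes for RNA polymerase I transcription, 5 abundant nucleolar proteins, 4 proteins of box C/D and 4 of box H/ACA ribonucleoproteins, 14 factors of the small ribosomal subunit and 17 of the large one.

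Trim71, also called Lin41, binds target mRNAs through its NHL domain, and the series title names the change as one that causes hydrocephalus. Polyadenylated RNA was sequenced in 3 libraries with the R783H label and 3 with the wild-type (WT) label. In both groups the labels give the E14TG2a background, a FLAG tag on Trim71 and growth on gelatin in 2i with LIF, a medium whose MEK and GSK3 inhibitors support naive pluripotency. The labels give replicate letters, A to C, without saying if these are clones, cultures or library preparations, so p-values measure the spread between these libraries, which may be technical.

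Ribosomes are built in the nucleolus, where RNA polymerase I transcribes a long precursor of the ribosomal RNAs. Small nucleolar ribonucleoproteins (snoRNPs) modify that precursor, box C/D particles by methylating riboses and box H/ACA particles by converting uridine to pseudouridine. Large assemblies then fold and cut it while ribosomal proteins join, and the small and large subunits mature along separate paths. Fast-dividing cells such as embryonic stem cells make many ribosomes, and the transcription factor Myc is known to activate many genes of this pathway.

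Libraries held 20894277 to 29079670 counts, and each R783H library was deeper than each WT library. Values below are CPM, the count of a gene relative to the TMM-scaled total of its library. Trim71 mRNA itself had 143.7 ± 12.8 CPM with R783H against 140.5 ± 16.4 with WT (SD, n = 3), a level that does not show which codon the cells carry. The 8 embryonic stem cell markers summed to 6217 to 6299 CPM in R783H libraries and 6548 to 6643 CPM in WT. Of these, 3 were called lower by log2 fold change, Pou5f1 (-0.21), Nanog (-0.23) and Zfp42 (-0.36), and 1 higher, Tfcp2l1 (0.17). The 5 fibroblast markers summed to 3.59 CPM or less in every library, with Thy1 called lower. The 4 endoderm markers summed to 7.43 to 8.38 CPM in R783H against 3.06 to 4.80 CPM in WT, with Afp at 0 counts, and the 4 neural markers to 47.9 to 57.4 against 84.8 to 89.7 CPM. The endoderm markers Gata4 and Sox17 were called higher. The neural sum was mostly Tubb3 (48.8 against 85.0 CPM on average), Neurod1 was also called lower, and Map2 was called higher, at 2.38 against 1.22 CPM. The part of these differences in the results was not tested, and in bulk RNA fewer cells of a type and less RNA per cell cannot be told apart.

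Ribosome biogenesis mRNAs were lower in R783H across the set. Of the 50 genes, 47 (94%) were called lower and 0 higher by edgeR's quasi-likelihood test, which calls a gene at a Benjamini-Hochberg adjusted p under 0.05 over all 14199 tested genes. Of all tested genes, 64.5% were called in either direction, 30.9% lower and 33.5% higher. The remaining 3 members, Polr1a, Nop14 and Nob1, had fold changes below 0 that did not pass. At an unadjusted p under 0.05 edgeR gave 0 higher members too, since every fitted fold change was negative, and DESeq2 also called 0 higher. The 47 called genes were also those whose CPM values did not overlap between the groups, a state found for 68.1% of all tested genes. The median log2 fold change of R783H over WT was -0.50 over the members and 0.03 over all tested genes, and values ran from -1.08 to -0.03. The typical size was thus moderate. The median absolute change of called members was 0.50, against 0.47 for all called genes, and 15 members fell by at least 1.5-fold, a size at which 9.54% of all tested genes were called lower and 24.6% in either direction.

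**Figure D1:**
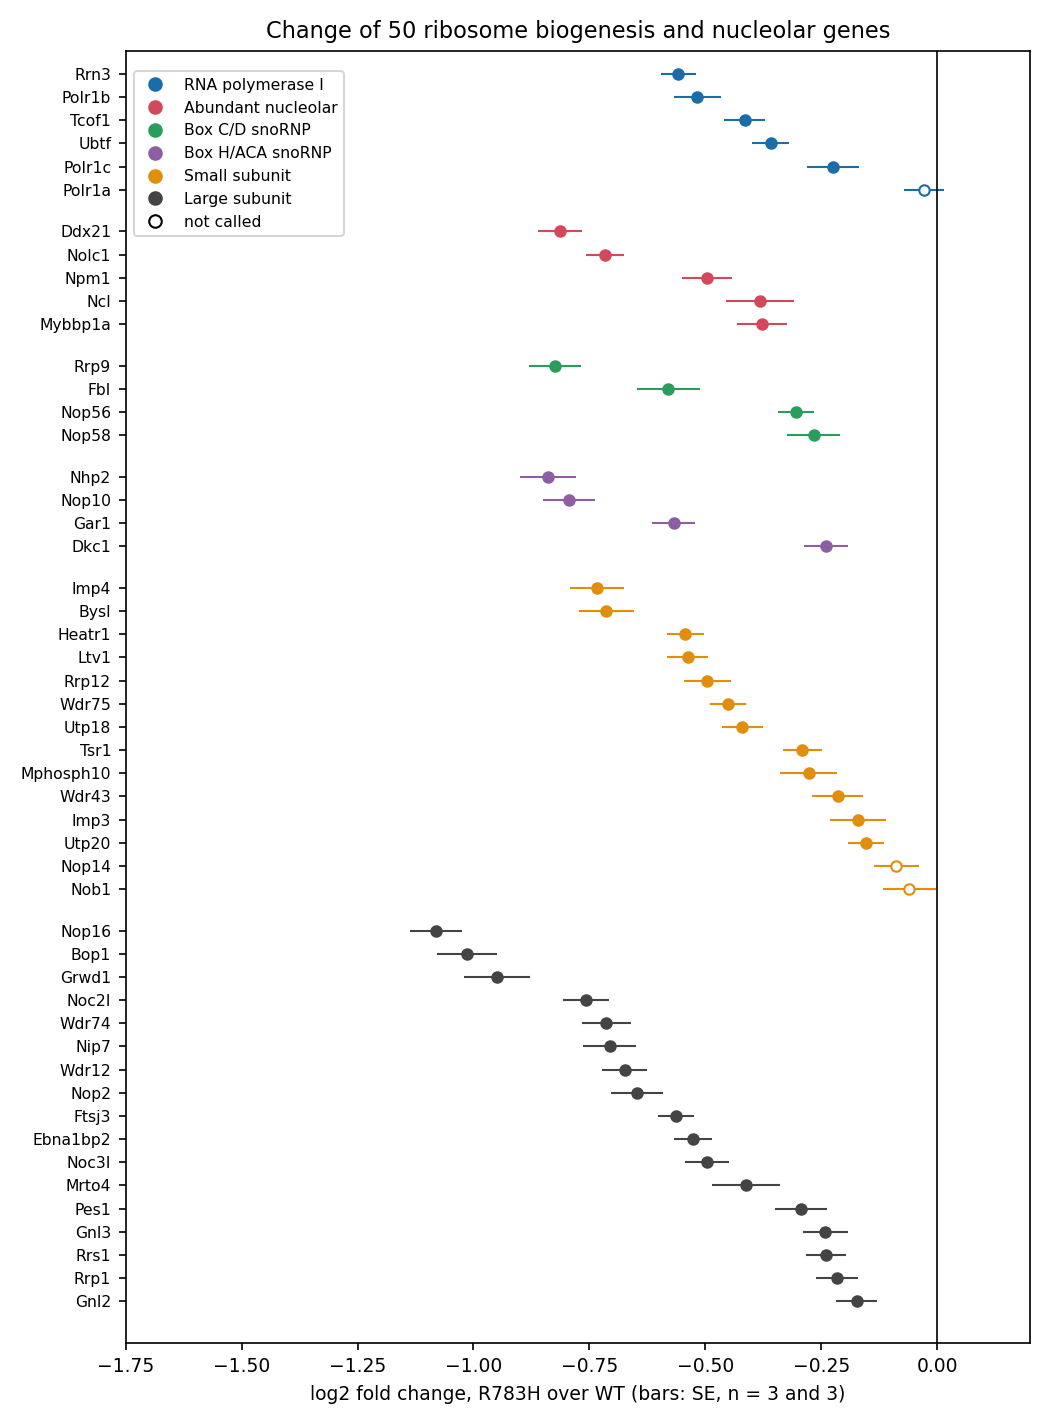
Log2 fold change of R783H over WT (x axis) for each of the 50 genes (y axis, grouped by role), with bars for the standard error of the fit over 3 and 3 libraries. All points lie below 0, from -1.08 for Nop16 to -0.03 for Polr1a, and the 3 open points were not called.

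Summed over the 50 genes, the level was 12819, 12928 and 13031 CPM in R783H A, B and C and 17755, 17618 and 17797 CPM in WT A, B and C. The R783H sums lay close together and far below every WT sum, and their mean was 0.729 times the WT mean. Cytosolic ribosomal proteins, the structural parts that these factors help to assemble, were not lower as a class. Of their 78 tested genes, 36 had higher calls and 8 had lower ones, and the median log2 fold change was 0.15. Among all tested genes 33.5% were called higher and 30.9% lower. Their summed level was 27244, 30182 and 27472 CPM in R783H A, B and C, with B apart, and 26489, 25925 and 24927 CPM in WT. No value with an offset for transcript length and GC content is given for this class. Within a library, the sum of the 50 members equalled 47.05%, 42.8% and 47.4% of the ribosomal protein sum in R783H A, B and C, and 67.0%, 68.0% and 71.4% in WT. This share does not depend on how libraries are scaled, and its groups did not overlap. Near-identical copies of the ribosomal protein genes were not examined, and the counting of shared reads is not known. The ribosomal protein sums, and with them the size of the share, are uncertain to that extent.

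RNA polymerase I transcription was the first role examined. Of its 6 genes 5 were called lower and 0 higher, with a median log2 fold change of -0.39. Among all tested genes 30.9% were called lower. Rrn3, the initiation factor that brings the polymerase to the ribosomal gene promoter, was at 325, 333 and 324 CPM in R783H A, B and C and at 484, 476 and 485 CPM in WT. The groups were far apart and each was tight. Rrn3 fell by 0.56 on the log2 scale (SE 0.04, edgeR adjusted p 4.55e-07). Polr1b, which forms the catalytic core of the enzyme together with Polr1a, fell by 0.52 (SE 0.05, adjusted p 5.64e-06 by edgeR) on the log2 scale. Polr1a, the largest subunit, stood at 330.0, 352 and 328 CPM in R783H against 351, 338 and 341 CPM in WT. Those values overlapped, and the log2 fold change of -0.03 had a 95% interval of -0.12 to 0.07 (edgeR adjusted p 0.598).

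The ratio of Polr1b to Polr1a counts within a library was 0.521, 0.538 and 0.533 in R783H and 0.762, 0.753 and 0.721 in WT. The ratio was lower in every R783H library. The gap between their log2 fold changes was -0.49, and -0.26 with an offset for transcript length and GC content (Polr1b -0.56, Polr1a -0.30). Tcof1, the treacle protein that links polymerase I to its template, took the most reads of this role, with 471, 516 and 484 CPM in R783H and 668, 648 and 646 CPM in WT. Its groups were well separated, and it fell by 0.41 (SE 0.04), while Ubtf, which coats the ribosomal gene repeats, fell by 0.36 (SE 0.04). Polr1c, a subunit shared with RNA polymerase III, changed by -0.22 (SE 0.06). Without R783H B the Polr1a log2 fold change was -0.08 and was called (edgeR adjusted p 0.0323). With the offset Polr1a was called too, while Polr1c was not, at -0.07 (edgeR adjusted p 0.0677). These offset calls, and the gap of -0.26 between Polr1b and Polr1a, depend on the lengths used, 9216 nt for Polr1a and 1314 nt for Polr1c.

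The abundant nucleolar proteins were all called lower, 5 of 5, with a median of -0.50 and 2 past 1.5-fold. The shares of all tested genes called lower were 30.9%, and 9.54% at 1.5-fold or more. Ddx21, an RNA helicase that acts in polymerase I transcription and precursor processing, was at 395, 365 and 405 CPM in R783H and 674, 672 and 703 CPM in WT. No R783H library came near a WT library, and the log2 fold change was -0.81 (SE 0.05, edgeR adjusted p 1.82e-07). Nolc1, which shuttles between nucleolus and Cajal bodies as a chaperone of snoRNPs, changed by -0.72 (SE 0.04). Npm1, the nucleolar histone and ribosome chaperone nucleophosmin, was at 788, 698 and 799.9 CPM in R783H and 1043, 1073 and 1107 CPM in WT, a change of -0.50 (SE 0.05). Ncl, nucleolin, took more reads than any other member, with 2053, 1732 and 2138 CPM in R783H and 2435, 2548 and 2734 CPM in WT. Its groups were apart, although R783H B lay well below R783H A and C, and the log2 fold change was -0.38 (SE 0.07, edgeR adjusted p 7.81e-04). Mybbp1a, a nucleolar regulator of polymerase I, was at 1063, 1211 and 1069 CPM in R783H and 1495.2, 1450.4 and 1397 CPM in WT. These did not overlap, and its change of -0.38 (SE 0.05) was the smallest of the role, level with that of Ncl.

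**Figure D2:**
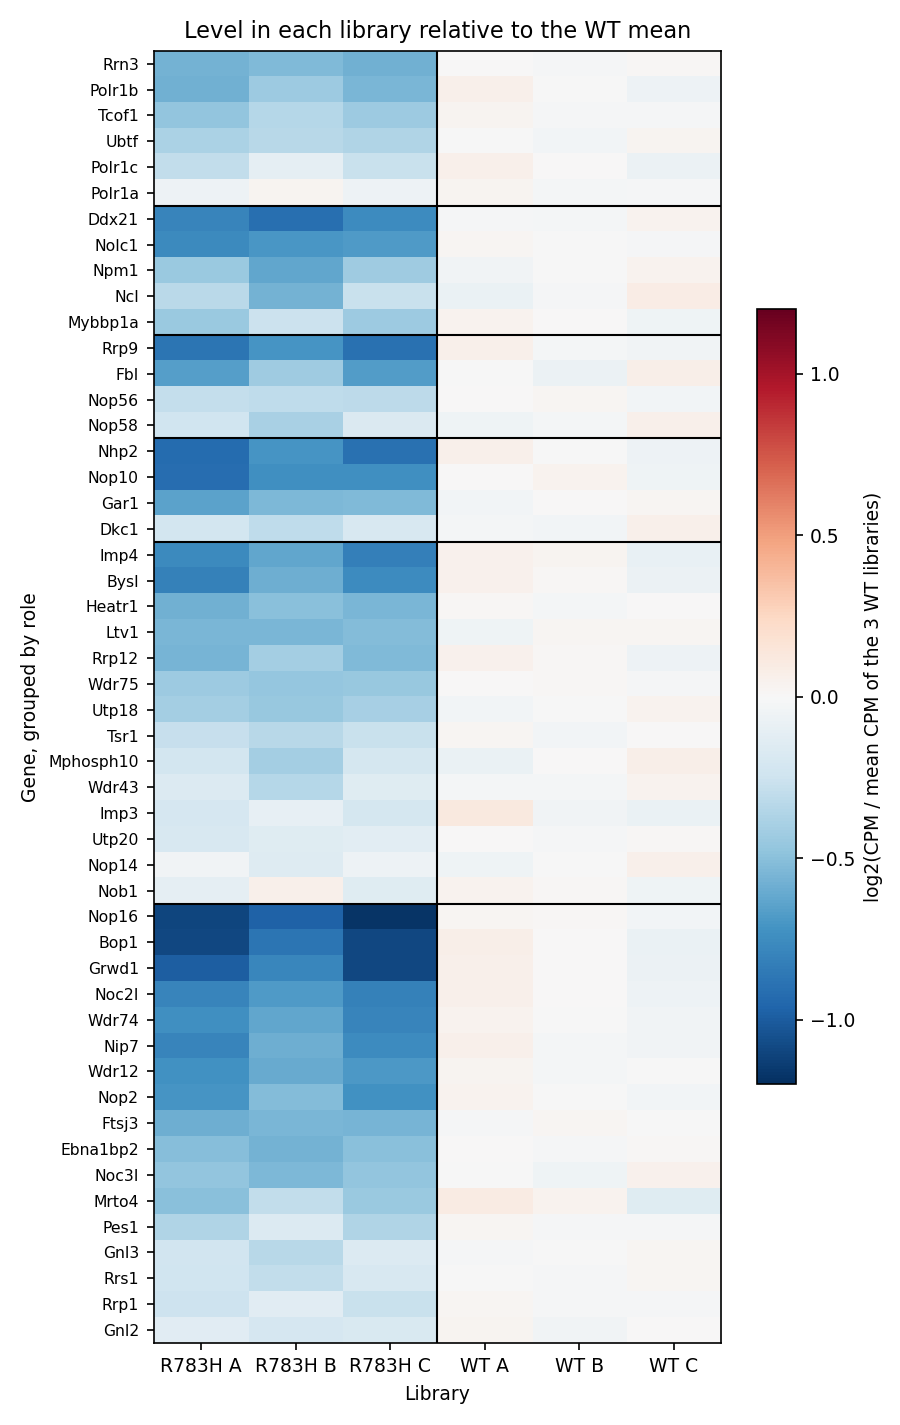
Level of each gene (y axis, grouped by role) in each of the 6 libraries (x axis), as log2 of CPM over the mean of the 3 WT libraries; blue is lower and red higher. The 3 R783H columns are blue in nearly every row, and R783H B differs from A and C in several rows, such as Ncl, at 1732 against 2053 and 2138 CPM.

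Box C/D particles were represented by 4 proteins, all called lower (30.9% of all tested genes were), with a median of -0.44. Rrp9, a protein specific to the U3 particle that guides early cleavage of the precursor, showed the largest change of this role, from 288, 272 and 269 CPM in WT to 151, 169 and 148 CPM in R783H (log2 fold change -0.82, SE 0.06, edgeR adjusted p 4.44e-07). Changes of the common core were smaller in this fit, but with the length and GC offset Nop58 was at -0.60, close to Rrp9 at -0.61. Fbl, the methyltransferase fibrillarin, was at 119, 141 and 119 CPM in R783H and 188, 179.5 and 198 CPM in WT, a change of -0.58 (SE 0.07). Nop56 and Nop58, the paired scaffold proteins of the particle, changed by -0.30 (SE 0.04) and -0.27 (SE 0.06). Nop58 was at 307, 277 and 321.5 CPM in R783H and 351, 358 and 379.6 CPM in WT, which did not overlap (edgeR adjusted p 0.00177). The ratio of Fbl to Nop58 counts overlapped between the groups, at 0.508 in R783H B and 0.388 and 0.369 in R783H A and C, against 0.501 to 0.535 in WT. Fbl fell further than Nop58 without the offset and less far with it, at -0.39 against -0.60. The offset value of Nop58, and its place beside Rrp9 and Fbl, depend on the 9507 nt transcript used for Nop58.

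Box H/ACA particles share 4 core proteins, and all 4 were called lower (30.9% of all tested genes were), with a median of -0.68. With the length and GC offset the median was -0.52, against -0.65 for the abundant nucleolar proteins and -0.55 for large subunit factors. The -0.65 is the value of Ncl, the middle gene of its role, at -0.38 without the offset. It depends on the 8202 nt transcript used for Ncl, and so does the order of that role and box H/ACA. Box H/ACA transcripts have the shortest median length of the 6 roles (1190.0 nt). Changes were larger for the 3 small proteins than for the enzyme. Nhp2 was at 179.7, 208 and 183 CPM in R783H and 356, 339 and 325 CPM in WT, and it fell by 0.84 on the log2 scale (SE 0.06, edgeR adjusted p 6.14e-07). Nop10 changed by -0.79 (SE 0.06) and Gar1 by -0.57 (SE 0.05). Dkc1, dyskerin, the pseudouridine synthase that is also part of telomerase, was at 286, 269 and 292 CPM in R783H and 328, 325.5 and 348 CPM in WT, a change of -0.24 (SE 0.05, edgeR adjusted p 9.02e-04). The groups of Dkc1 did not overlap, but its change was smaller than those of its partners. The ratio of Nhp2 to Dkc1 counts was 0.628, 0.772 and 0.625 in R783H and 1.09, 1.04 and 0.935 in WT, without overlap.

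Of the small subunit factors 12 of 14 were called lower and 0 higher, with a median of -0.36, while 30.9% of all tested genes were called lower. Past 1.5-fold were 2 of the 14, a size at which 9.54% of all tested genes were called lower. Imp4 fell most in this role. It binds Mphosph10 and Imp3 in a complex of the U3 particle, and it was at 94.4, 103.7 and 90.9 CPM in R783H and 166, 164 and 151 CPM in WT (log2 fold change -0.73, SE 0.06, edgeR adjusted p 1.27e-06). Its partners changed less, Mphosph10 by -0.28 (SE 0.06) and Imp3 by -0.17 (SE 0.06, edgeR adjusted p 0.0290). Imp3 was at 50.4, 54.2 and 50.2 CPM in R783H and 62.8, 56.4 and 55.1 CPM in WT. The call of Imp3 was lost without R783H A (-0.17), without R783H C (-0.16), without WT A (-0.11), with scaling by library size alone (-0.09) and with the length and GC offset (0.03). The ratio of Imp4 to Imp3 counts was 1.87, 1.91 and 1.81 in R783H and 2.64, 2.90 and 2.74 in WT. The gap between their log2 fold changes was -0.56, and -0.93 with the offset. The offset used a 5836 nt transcript for Imp4, nearly its whole locus (chr1:34439829-34445747), so the -0.93 depends on that choice of length.

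Bysl, bystin, which acts in late maturation of the small subunit, changed by -0.71 (SE 0.06), from 177, 172 and 163 CPM in WT to 97.4, 114 and 101.4 CPM in R783H. Among the large scaffolds of the processome, the early precursor of the small subunit, Heatr1 was at 338, 356 and 344 CPM in R783H and 508, 497 and 506 CPM in WT, a change of -0.54 (SE 0.04). Utp20, which took the most raw reads of this role over the 6 libraries, changed by -0.15 (SE 0.04), with 391, 401 and 408 CPM in R783H and 446, 441 and 448 CPM in WT. The Utp20 groups were close but did not overlap. With the length and GC offset Utp20 was at -0.43, and with library size alone it was at -0.07 and not called. The processome proteins with WD repeats changed by -0.45 (SE 0.04, Wdr75) and -0.21 (SE 0.05, Wdr43), and Utp18 by -0.42 (SE 0.04). Ltv1, which is released late from the small subunit, changed by -0.54 (SE 0.04), the export factor Rrp12 by -0.50 (SE 0.05) and Tsr1, a GTPase-like late factor, by -0.29 (SE 0.04). Nob1, the nuclease that makes the final cut of the small subunit RNA, was at 195, 219 and 190.2 CPM in R783H and 216, 212 and 202 CPM in WT. It overlapped between the groups, with a log2 fold change of -0.06 (95% interval -0.18 to 0.07, edgeR adjusted p 0.376). Without R783H B, the highest of the 6 libraries, Nob1 was at -0.15 and called (edgeR adjusted p 0.00221). Nop14 was at -0.09 (95% interval -0.20 to 0.02, edgeR adjusted p 0.140).

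Large subunit factors were called lower in 17 of 17 cases, beside 30.9% of all tested genes. Past 1.5-fold were 8 of the 17, a size at which 9.54% of all tested genes were called lower. Past 2-fold were 2, a size at which 9.08% of all tested genes were called in either direction, a share that includes rises. The median of the role was -0.56. Nop16 (Entrez 28126, chr13:54584191-54590097, GRCm38), a nucleolar protein of early large subunit particles, had the largest change of the set. Its level was 52.4, 57.4 and 49.96 CPM in R783H and 114, 113.5 and 110.0 CPM in WT. Every R783H library was far below every WT library, and the log2 fold change was -1.08 (SE 0.06, edgeR adjusted p 1.00e-07). Bop1 (Entrez 12181, chr15:76452988-76477249) was at 141, 164 and 141 CPM in R783H and 316, 301 and 284 CPM in WT, which gave -1.01 on the log2 scale (SE 0.06, edgeR adjusted p 2.92e-07). Grwd1, a histone-binding protein of large subunit precursors, changed by -0.95 (SE 0.07).

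Bop1 acts with Pes1 and Wdr12 in the PeBoW complex, which is needed to process the large subunit RNA. Wdr12 changed by -0.67 (SE 0.05), less than Bop1, but with the length and GC offset by more, at -1.02 against -0.90. Pes1 was at 229, 264 and 229 CPM in R783H and 300.3, 293 and 292 CPM in WT, a change of -0.29 (SE 0.06, edgeR adjusted p 7.88e-04). The ratio of Bop1 to Pes1 counts was 0.615, 0.622 and 0.616 in R783H and 1.05, 1.03 and 0.974 in WT, and that of Wdr12 to Pes1 was 0.262, 0.248 and 0.270 against 0.338, 0.334 and 0.340. Both ratios were lower in every R783H library. With the offset the gap of Bop1 to Pes1 was -0.62 and that of Wdr12 to Pes1 -0.74. The -0.74, and the order of Wdr12 and Bop1 with the offset, depend on the 10012 nt transcript used for Wdr12. In all, 6 such ratios of partners were computed, from pairs chosen after their values were seen. For 5 of them the groups did not overlap and the exact two-sided permutation p was 0.1, the smallest that 3 against 3 libraries allow, and 0.12 after Benjamini-Hochberg adjustment over the 6. For Fbl to Nop58 the exact permutation p was 0.2. Neither these p-values nor their adjustment account for the choice of pairs, so they describe the 6 ratios only.

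Further large subunit factors ranged from -0.76 (Noc2l) to -0.17 (Gnl2). Noc2l (-0.76, SE 0.05), Wdr74 (-0.71, SE 0.05), Nip7 (-0.71, SE 0.06) and Nop2 (-0.65, SE 0.06) fell by more than 1.5-fold. Nop2, an RNA methyltransferase and a classical proliferation antigen of the nucleolus, was at 352, 400.4 and 348 CPM in R783H and 592, 572 and 561 CPM in WT, and took the most reads of this role. Ftsj3, another RNA methyltransferase, changed by -0.56 (SE 0.04), Ebna1bp2 by -0.53 (SE 0.04), Noc3l by -0.50 (SE 0.05) and Mrto4, related to the ribosomal stalk protein, by -0.41 (SE 0.07). The nucleolar GTPases Gnl3, known as nucleostemin and abundant in stem cells, and Gnl2 changed by -0.24 (SE 0.05) and -0.17 (SE 0.04). Rrs1 and Rrp1 changed by -0.24 (SE 0.04) and -0.22 (SE 0.05). Gnl2 had the smallest change of the role, with 94.8, 90.5 and 91.8 CPM in R783H and 106.5, 101.3 and 105 CPM in WT, which did not overlap (edgeR adjusted p 0.00546). With library size alone Gnl2 was at -0.09 and Wdr43 at -0.13, and neither was called.

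**Figure D3:**
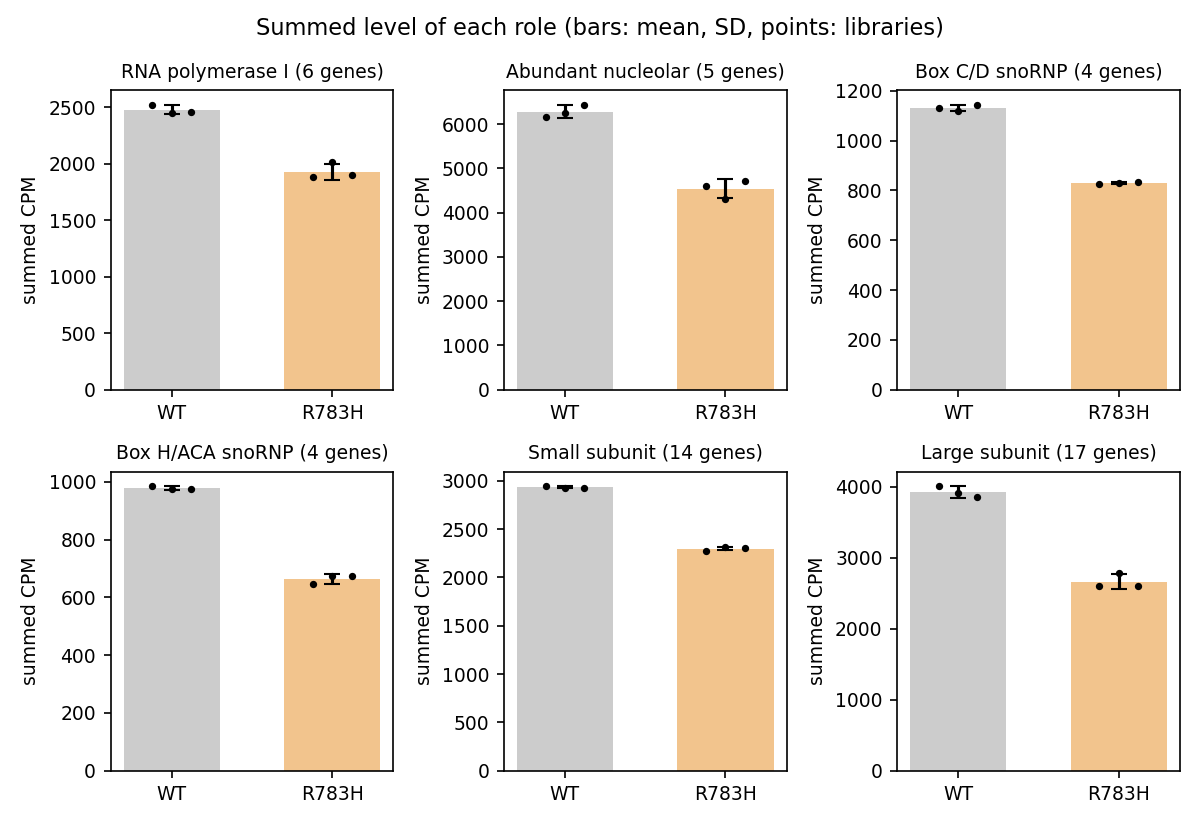
Summed CPM (y axes, each from 0) of the genes of each role in WT and R783H, with bars for the mean, error bars for the SD and points for the 3 libraries. The R783H libraries lie below the WT libraries in all 6 panels, with ratios of means from 0.678 (box H/ACA and large subunit) to 0.783 (small subunit).

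The sums of each role separated the groups without overlap. Large subunit factors summed to 2599, 2785 and 2600.0 CPM in R783H and 4012, 3911 and 3854 CPM in WT. Box H/ACA proteins had a mean sum of 663 ± 16.4 CPM with R783H against 978 ± 6.65 with WT (SD, n = 3), and small subunit factors to 2298 ± 18.2 and 2934 ± 13.3 CPM. For RNA polymerase I genes the sums were 1931 ± 71.1 and 2476 ± 39.9 CPM, and for box C/D proteins 829 ± 4.03 and 1130.4 ± 12.9 CPM. The abundant nucleolar proteins had the widest spread, 4544 ± 209 CPM in R783H and 6279 ± 144 CPM in WT, and R783H B was the lowest, as it was for Ncl.

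Other ribosome biogenesis genes, 105 taken from general knowledge of the pathway with earlier results of these data known, mostly moved the same way. Of these 89 (84.8%) were called lower and 3 higher, with a median of -0.40, and 97 had a fold change below 0. Over all tested genes 30.9% were called lower and 33.5% higher, and 47.5% had a fold change below 0. By path, 6 of 9 further RNA polymerase I genes, 36 of 43 small subunit factors, 37 of 43 large subunit factors and 10 of 10 snoRNP assembly factors were lower. The 5 largest decreases were in Eif6, which keeps the subunits apart until the large one is mature, at -0.94 (SE 0.07), Wdr18 at -0.91 (SE 0.06), the helicase Ddx18 at -0.91 (SE 0.04), Nifk at -0.89 (SE 0.05) and the polymerase I subunit Polr1e at -0.84 (SE 0.06). Eif6 was at 135, 163 and 134 CPM in R783H and 293, 274 and 262 CPM in WT. The 3 called higher were Nop53, at 404, 438 and 393 CPM in R783H against 341, 328 and 307 CPM in WT (log2 fold change 0.34, SE 0.05, edgeR adjusted p 2.07e-04), Nsa2 (0.19, SE 0.05) and the kinase Riok3 (0.12, SE 0.05, edgeR adjusted p 0.0398). Nop53 takes part in maturation of the large subunit RNA.

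**Figure D4:**
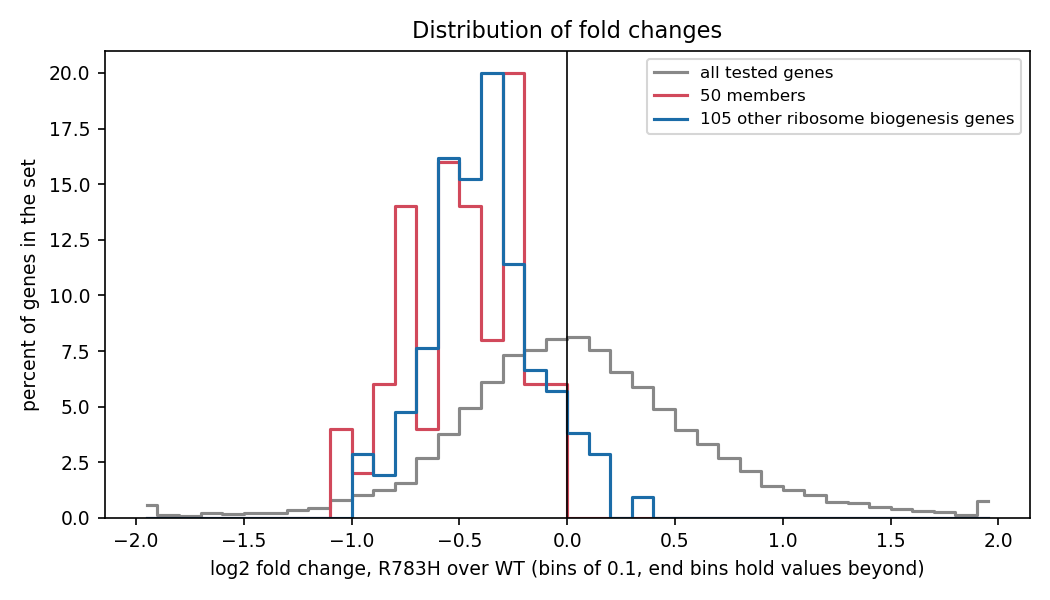
Percent of genes (y axis) by log2 fold change of R783H over WT (x axis, bins of 0.1) for all 14199 tested genes, the 50 members and the 105 other ribosome biogenesis genes. The members lie wholly below 0, 97 of the 105 other genes do too, and of all tested genes 47.5% do.

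Myc, known as an activator of this pathway, was at 19.3, 21.2 and 19.3 CPM in R783H and 66.2, 67.2 and 62.8 CPM in WT, and it fell by 1.71 on the log2 scale (SE 0.06). Mycn, its paralog, changed by -0.45 (SE 0.05), from 85.2, 84.0 and 81.6 to 61.6, 58.4 and 63.9 CPM. Both moved in the same direction as the members, and their part in the members' levels was not tested. Myc and its partner Max bind the E-box CACGTG, a motif that reads the same on both strands, so the 250 bases before each annotated start were searched for it in RefSeq's promoter table (GRCm38.p6). Of the 43 members with an entry, 4 (9.30%) held the motif, against 1077 of the 10766 tested genes with an entry and 6.86% of all 27025 genes in the table. The share among the members was close to that of the tested genes. All 4 are printed over 100 bases, 5′ to 3′ in the direction of the gene, with the E-box in capitals. They show where the motif stands in genes of 3 different roles.
Imp4, chr1:34439661-34439760, plus strand: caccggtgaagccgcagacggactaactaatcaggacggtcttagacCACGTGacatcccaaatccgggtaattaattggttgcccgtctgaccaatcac
Nop2, chr6:125131776-125131875, plus strand: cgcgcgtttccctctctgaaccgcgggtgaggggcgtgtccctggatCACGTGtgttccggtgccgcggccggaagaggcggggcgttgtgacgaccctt
Rrn3, chr16:13780599-13780698, plus strand: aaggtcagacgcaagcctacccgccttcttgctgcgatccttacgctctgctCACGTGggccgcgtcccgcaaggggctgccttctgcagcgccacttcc
Utp18, chr11:93885767-93885866, minus strand: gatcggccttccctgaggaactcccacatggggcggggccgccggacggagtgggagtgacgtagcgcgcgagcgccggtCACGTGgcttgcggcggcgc

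The first base of the motif lies 121 bases before the start of Imp4, 60 before that of Nop2, 48 before that of Rrn3 and 20 before that of Utp18. Rrn3 held a further copy 215 bases before its start. These 4 genes changed by -0.73, -0.65, -0.56 and -0.42 on the log2 scale, within the range of the members without the motif. Nop16, Grwd1 and Nhp2, the largest decreases among members with an entry, did not hold CACGTG in this window. Among the 14 members with an entry that fell by at least 1.5-fold 2 held it, and among the other 29 also 2.

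Fold changes in these libraries followed transcript length across all genes, with a Spearman rho of 0.266 over 13067 genes, which are not independent replicates. Over the 50 members rho was 0.105. With an offset that removes the trend with length and GC content from each library, 46 members were called lower and 0 higher, and 48 had a fold change below 0. The members' median was then -0.46. Long genes moved further down, Ncl to -0.65 and Heatr1 to -0.75, and short genes moved towards 0, Nhp2 to -0.66 and Fbl to -0.39. Long transcripts were used for Ncl (8202 nt), Nop58 (9507 nt) and Wdr12 (10012 nt). Their offset values, -0.65, -0.60 and -1.02, depend on that choice of length. The transcript used for Imp4 (5836 nt) covers nearly its whole locus, so its offset value of -0.90 depends on the choice too. For Polr1a the offset value of -0.30 rests on a length of 9216 nt. Imp3, at 0.03, and Nob1, at 0.07, turned positive without being called.

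**Figure D5:**
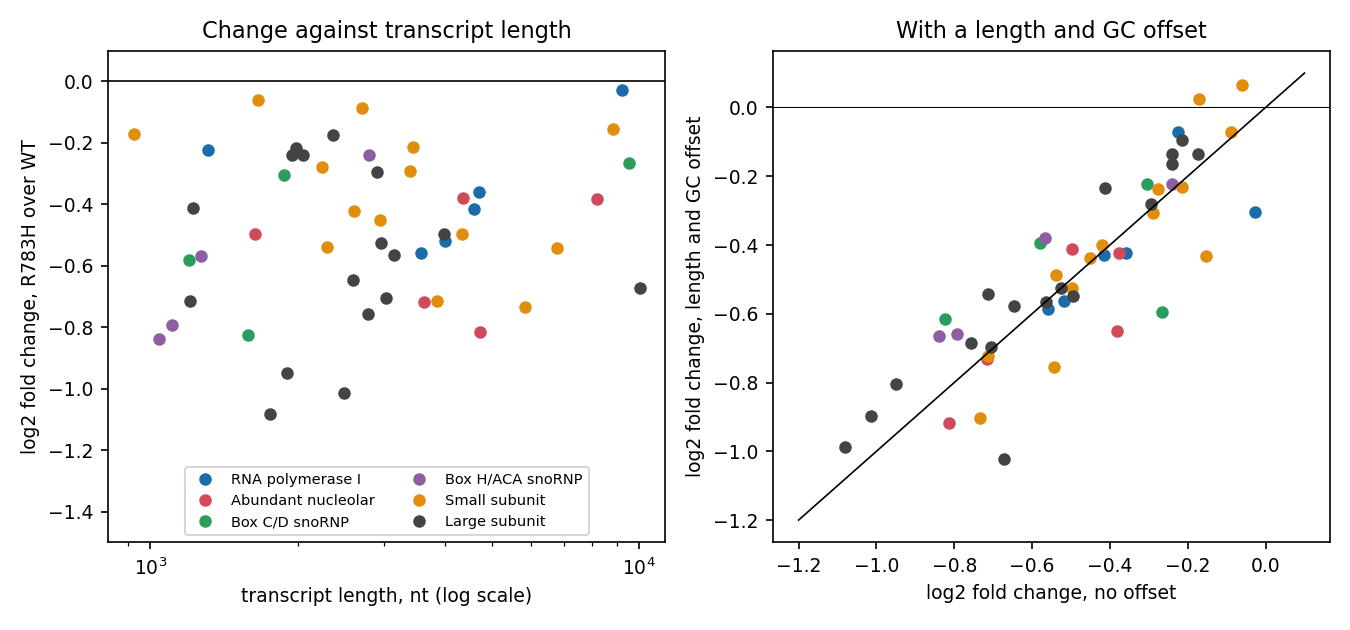
Left, log2 fold change of R783H over WT (y axis) against annotated transcript length (x axis, log scale) for the 50 genes. Right, the log2 fold change with the length and GC offset (y axis) against that without it (x axis), with the line of equality; 48 of 50 genes stay below 0.

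Among the R783H libraries, B differed from A and C in a way that followed base composition. The 28 members highest in R783H B had a median GC content of 54.0%, and the 17 lowest there had 44.7%. Over the 50 members the log2 ratio of R783H B to the mean of A and C correlated with GC content at a Pearson r of 0.716 and a Spearman rho of 0.693, a description across genes that share the same libraries. Without R783H B, 49 members were called lower and the median was -0.50, so the lower level in R783H did not rest on that library.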

How the data were processed

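The authors deposited a table of raw read counts per Entrez Gene identifier, with a column per library. Per the submitters' processing notes, CASAVA 1.4, HISAT2, SAMtools and the build mm10 were used; the counting tool, annotation and use of strand are not given in the sources used here. Libraries were grouped by title, and 0 value columns were left unmapped. Symbols came from RefSeq (GRCm38.p6), and transcript length and GC content from GENCODE M21.

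Genes passed edgeR's filterByExpr (minimum count 10, minimum total 15), libraries were scaled by TMM, and R783H was compared with WT by the quasi-likelihood test of edgeR 4.0.16 (R 4.3.3) with Benjamini-Hochberg adjustment. Alternatives used DESeq2 1.42.0, other scalings and filters, equal depth, a replicate block, a length and GC offset (splines with 5 degrees of freedom) and each library left out. Steps were tested on simulated data. Means are ± SD over 3 libraries. At these depths 3 counts correspond to 0.103 to 0.144 CPM, so depth did not limit the members, and counting error understates the spread between libraries.

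All members were described. Per-library values were written out for the largest and smallest change and the most reads of each role. Of the other pathway genes, the rule named up to 5 largest called changes in each direction averaging at least 50 counts. The members and lists were chosen with earlier results of these data known. Of the members, 16 share exon sequence with a gene on the opposite strand (Polr1a, Mybbp1a, Nop56, Dkc1, Nhp2, Imp4, Nop14, Bysl, Tsr1, Bop1, Pes1, Wdr12, Gnl3, Gnl2, Noc2l and Grwd1). Npm1, Fbl, Nop56, Nop58, Wdr12, Nip7 and Mrto4 have stretches of at least 100 nt at 98% identity in another gene. Their counts are uncertain to that extent.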

Additional observations from a re-analysis of the deposited data

How the results depend on the processing

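Over 14 alternatives, 43 of the 50 members kept their direction and their side of the threshold, 42 of them called lower; the 7 exceptions are Polr1a, Polr1c, Utp20, Imp3, Wdr43, Nob1 and Gnl2. No member was called higher under any alternative run, and between 43 (library size alone) and 49 (without R783H replicate B) were called lower. Scaling by library size alone moved the members' median from -0.50 to -0.41 and that of the 105 other pathway genes from -0.40 to -0.31, called 6 of these higher in place of 3, and turned Polr1a (0.0539) and the Nob1 log2 fold change (0.0213) positive without a call; it shifts all genes by 0.08. With each library left out, the other pathway genes called higher numbered 1 (without WT B) to 4 (without R783H B), and their median lay between -0.43, with R783H B left out, and -0.39, with WT C left out. Under the length and GC offset Imp3 was at 0.0257, Nob1 at 0.0652 and Trim71 at -0.22 (edgeR adjusted p 0.00641). With single libraries left out, Trim71 was lowest at -0.0219 (R783H A) and highest at 0.13 (WT C), and was not called. With the replicate block 47 members were called lower, median -0.50, and no member's call changed. Deviations of same-letter libraries correlated at -0.07, 0.00682 and 0.0851, so the letters do not show pairing. The cause of these shifts was not tested.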
